A study of Mus musculus with 4 samples.

Results

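In large peritoneal macrophages (LPMs), 421 genes each had 12 or more accessible regions around them. They were 421 of 14302 genes with at least 1 region, and they held 6565 of the 46907 regions that could be placed on a gene. A region was a stretch in which ATAC-seq peaks of the 4 libraries shared at least 1 bp, and it was kept when 2 or more libraries called it. Each region was given to the RefSeq protein-coding transcript start (TSS) nearest to its midpoint, within 100 kb. The genes were chosen by their number of called regions, so the numbers of regions below describe them and no test was made on them.

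ATAC-seq marks open chromatin, where the Tn5 transposase can cut and tag DNA. LPMs were sorted from the peritoneal cavity of 9-week-old C57BL/6 mice, at 40000 cells per library. Rxrab fl/fl mice, which carry floxed Rxra and Rxrb and no Cre, gave libraries named replicates 1 and 3. LysMCre+ Rxrab fl/fl mice, which carry the same floxed alleles and delete them in myeloid cells through the LysM promoter, gave replicates 1 and 2. LysM-driven Cre also acts in other myeloid cells, so the cavity from which the LPMs were sorted differed as well. In bulk libraries, a change in the share of cells and a change in accessibility per cell cannot be told apart. Nothing in the labels ties a library to 1 mouse, and the spread between the 2 libraries of a genotype may be technical.

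Genes that hold many accessible regions close together are often those that define a cell. Such clusters carry enhancers, short stretches bound by transcription factors, and a cluster can span a whole gene and its surroundings. In macrophages, PU.1, C/EBP, AP-1 and RUNX factors are known to bind many enhancers. RXRα and RXRβ are nuclear receptors that pair with each other or with partners such as PPARs, LXRs and RARs and bind repeats of a short half-site.

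The sequences of 8 regions are shown because they stand for the loci described below, the first 6 as the strongest region of their gene outside promoter-TSS and exons. Strongest means highest in mean log2 fold enrichment, taken over libraries with the peak. Each is the mm10 plus strand over 151 bp around the summit, from the RefSeq copy of that genome. Capitals mark matches to AP-1 (TGANTCA) or C/EBP (TTGCNNAA) on either strand. A match is a description of the letters, not a bound site. The windows are chr6:98977925-98978075 (Foxp1, intron), chr19:32276911-32277061 (Sgms1, intron), chr11:117276071-117276221 (Septin9, intron), chr14:25527417-25527567 (Zmiz1, intron), chr8:117209243-117209393 (Cmip, upstream of the gene), chr2:167754017-167754167 (Cebpb, downstream of the gene), chr15:67048760-67048910 (Ndrg1, upstream of the gene) and chr2:27758475-27758625 (Rxra, intron).
Foxp1: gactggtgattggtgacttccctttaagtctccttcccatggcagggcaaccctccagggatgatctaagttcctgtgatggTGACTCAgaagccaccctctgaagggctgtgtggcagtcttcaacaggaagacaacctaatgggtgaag
Sgms1: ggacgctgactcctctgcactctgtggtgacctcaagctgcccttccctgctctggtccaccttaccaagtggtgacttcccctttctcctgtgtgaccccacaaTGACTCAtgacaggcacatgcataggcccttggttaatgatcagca
Septin9: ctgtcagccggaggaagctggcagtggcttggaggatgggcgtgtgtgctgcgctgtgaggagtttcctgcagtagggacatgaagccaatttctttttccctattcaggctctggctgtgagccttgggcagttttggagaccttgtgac
Zmiz1: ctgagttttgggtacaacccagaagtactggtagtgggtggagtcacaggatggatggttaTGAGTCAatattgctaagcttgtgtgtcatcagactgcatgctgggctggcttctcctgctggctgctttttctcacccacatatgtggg
Cmip: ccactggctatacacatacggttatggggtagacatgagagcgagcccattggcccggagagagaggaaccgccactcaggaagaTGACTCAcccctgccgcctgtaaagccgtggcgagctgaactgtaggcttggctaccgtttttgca
Cebpb: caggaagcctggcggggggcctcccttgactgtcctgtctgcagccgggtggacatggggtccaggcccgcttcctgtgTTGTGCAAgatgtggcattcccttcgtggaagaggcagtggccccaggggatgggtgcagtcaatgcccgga
Ndrg1: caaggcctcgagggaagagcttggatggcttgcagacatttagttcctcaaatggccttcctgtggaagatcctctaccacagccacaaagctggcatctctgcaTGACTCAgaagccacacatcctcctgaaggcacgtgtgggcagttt
Rxra: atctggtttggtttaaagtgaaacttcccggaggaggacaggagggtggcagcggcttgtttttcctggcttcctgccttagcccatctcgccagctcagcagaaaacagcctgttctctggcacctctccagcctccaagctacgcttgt
The windows of Foxp1, Sgms1, Zmiz1, Cmip and Ndrg1 each held 1 AP-1 match, that of Cebpb held 1 C/EBP match, and those of Septin9 and Rxra held none of the motifs searched. At the Septin9 window, Rxrab fl/fl had no peak and the LysMCre+ Rxrab fl/fl libraries reached 18.8 and 13.0 in fold enrichment. The Cebpb window had a summit pileup, the number of tags over the summit, of 457 and 96 in Rxrab fl/fl against 307 and 190 in LysMCre+ Rxrab fl/fl.

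The libraries differed widely in how many peaks they held, which touches every count below. The Rxrab fl/fl libraries held 38048 and 16097 peaks and the LysMCre+ Rxrab fl/fl libraries 65421 and 55581. The lowest background of a library, which follows its number of tags, was 1.06 to 1.97 tags per 200 bp, and the order of the libraries by peaks was not their order by background. Rxrab fl/fl replicate 3 stood apart from the rest. The labelled cell type was checked against 11 macrophage markers, which all had regions, with a median of 6 and at most 11. A region was found at 14302 of 20021 autosomal genes, so having one says little about cell type. Of 27 markers of B, T and mast cells, neutrophils, eosinophils and mesothelium, 12 had no region, among them Cd79a, Cd3e, Kit, Ly6g and Wt1. The other 15 had at most 7 regions each and 33 in all. None of these 27 was among the 421 genes, and neither was any of the 11 macrophage markers.

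The 421 genes were long. Their median was 15 regions and 101.1 kb, against 2 regions and 21.2 kb over all genes with a region. Among all RefSeq protein-coding genes on the autosomes, 0.492% of those under 10 kb, 2.85% of those of 30 to 100 kb, 11.1% of those of 100 to 300 kb and 4.98% of those over 300 kb were members, of 20021 genes in all. Spearman's rank correlation between the number of regions and gene length was 0.21 over the 421 genes and 0.29 over the 14302, as a description across genes, which share libraries and often neighbours. The stretch from which a gene could draw regions, its territory, was a median of 163 kb in members and 51.6 kb over all genes, with 9.62 and 5.27 regions per 100 kb of territory. Genes with 8 to 11 regions lay between, with a median territory of 113.5 kb and 7.99 regions per 100 kb. The rule chose genes by their number of regions, so a higher number per territory is part of the choice. At the threshold, 81 genes had exactly 12 regions and 141 had 11. Abtb2 had 6 and 2 regions called in Rxrab fl/fl against 12 and 9 in LysMCre+ Rxrab fl/fl, and stood just inside. Abcg1, a cholesterol exporter, had 11 regions, with 5 and 2 against 11 and 10, and stood just outside.

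**Figure D1:**
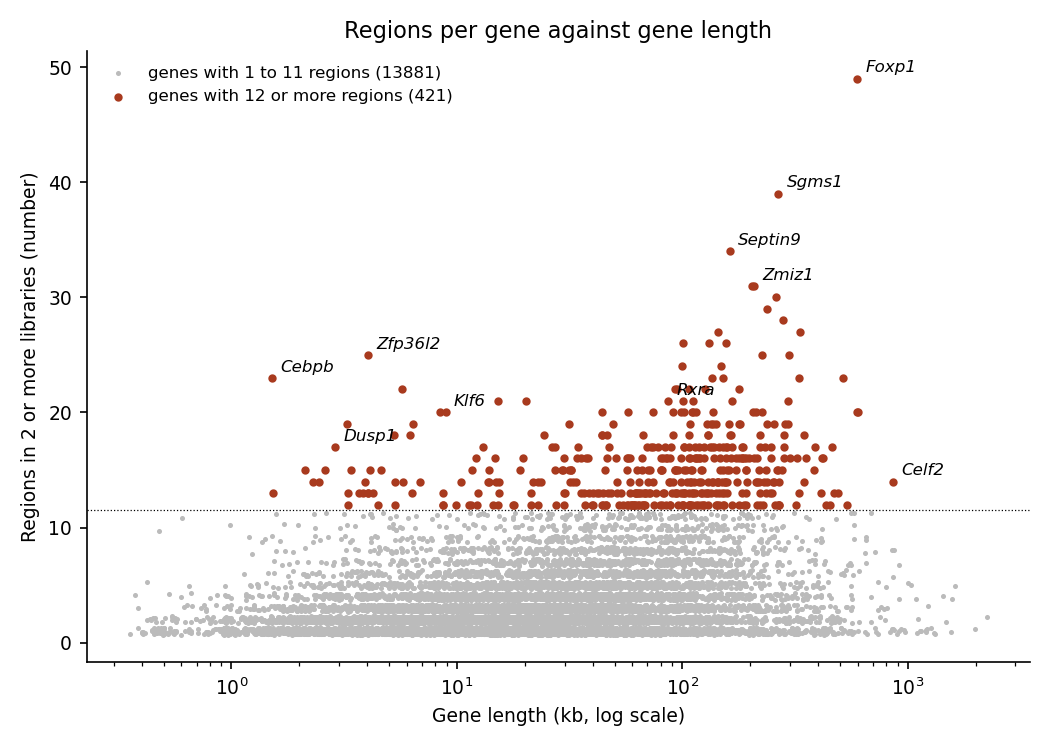
Each point is a gene, with its length in kb on a log axis and its number of regions in 2 or more libraries on the y axis; red points are the 421 genes with 12 or more regions and the dotted line is the threshold. Foxp1 stands at 49 regions and 595.7 kb, and Cebpb at 23 regions and 1.52 kb.

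Short genes reached the threshold through their surroundings. Members under 10 kb numbered 36. Cebpb, a C/EBP factor of myeloid cells, had 23 regions at 1.52 kb of gene, and 18 of them were intergenic. Zfp36l2, an RNA-binding protein that promotes mRNA decay, had 25 regions at 4.02 kb of gene, none of them in its own body and 9 in the body of Thada. Dusp1, a phosphatase of MAP kinases, had 17 regions at 2.88 kb, of which 16 were intergenic. Ier2, an immediate early gene, had 13 at 1.52 kb. At the other end, Celf2, an RNA-binding splicing factor, had 14 regions at 856.5 kb, or 1.64 per 100 kb of gene. Nfia, a transcription factor, had 12 at 536.9 kb and Prkce, a protein kinase C, 13 at 490.1 kb.

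Assignment by the nearest TSS did not always match the gene that held the region. Of the 6565 regions, 3615 (55.1%) were in the body of the gene they were given to, 308 (4.69%) in another protein-coding gene only and 2642 (40.2%) between genes. All 15 regions of Gm45915 lay inside Zmiz1, and with the 31 of Zmiz1 they made 46 regions at this locus. Of the 19 regions of Atp5o, 15 were inside Itsn1, and of the 14 of Tcp11, 10 were inside Anks1. In 25 genes, more regions lay in another gene than in their own.

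Member regions were mostly away from promoters. Of the 6565, 8.55% were in promoter-TSS, that is 1 kb before to 200 bp after a TSS, 54.9% in introns, 34.2% intergenic and 2.41% in exons. Over all placed regions these shares were 24.3, 39.5, 30.7 and 5.54%. A gene with many regions has few promoters to share among them, so the low promoter share follows from the rule. The median distance to the TSS was 26.9 kb, against 10.1 kb over all placed regions. Neighbouring regions of a member were a median of 6.00 kb apart, against 6.98 kb over all genes. Of the gaps, 69.8% were under 10 kb in members, 65.3% in genes with 8 to 11 regions and 62.8% over all genes. In members, 87.0% of regions were in a run in which each lay under 10 kb from the next. That share was not counted over all genes, and many regions per gene favour it. The longest runs held 17 regions, in 69.6 kb around Dusp1 and in 64.9 kb at Capzb, which encodes a subunit of the actin capping protein. Rxra, Lrrfip1, Zcchc24 and Ier5 each had a run of 16. Members also stood beside each other: 95 of them formed 50 pairs of neighbours. Among these were Septin9 with Sec14l1 (54 regions in all), Cmip with Plcg2 (51) and Asap1 with Cyrib (51). Such pairs were not counted over all genes. A dense locus split between neighbouring TSSs, as at Zmiz1 and Gm45915, makes a pair through the assignment itself.

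The gene with most regions was Foxp1, a forkhead transcription factor of monocytes and lymphocytes. Its 49 regions were called 23 and 7 times in Rxrab fl/fl against 49 and 48 times in LysMCre+ Rxrab fl/fl, and 43 of them were intronic. Both LysMCre+ Rxrab fl/fl libraries were above both Rxrab fl/fl libraries. Sgms1, a sphingomyelin synthase, had 39 regions, with 29 and 20 against 39 and 38. It had the most regions called in all 4 libraries, 20. Septin9, a filament-forming GTP-binding protein of the cytoskeleton, had 34, with 12 and 6 against 34 and 33, and 22 of them had a peak in each LysMCre+ Rxrab fl/fl library but in no other. Zmiz1, a PIAS-like transcriptional coactivator, had 31, with 22 and 10 against 30 and 29. Cmip, an adaptor protein of receptor signalling, had 31, with 27 and 9 against 30 and 29. Arhgef3, an exchange factor for RhoA, had 30, with 23 and 9 against 30 and 27. Prkag2, a regulatory subunit of AMP-activated kinase, had 29, with 10 and 4 against 29 in each LysMCre+ Rxrab fl/fl library. The other 13 of the 20 leading genes had 23 to 28 regions. Among them were Runx1 (20 and 6 against 24 and 25), Zfp36l2 (18 and 4 against 25 and 23), Cebpb (19 and 11 against 23 and 22), and the phosphatases Ptpre (16 and 7 against 23 and 24) and Ubash3b (21 and 5 against 26 and 27). At all 20, Rxrab fl/fl replicate 3 had the fewest regions and the genotypes did not overlap. Both LysMCre+ Rxrab fl/fl libraries were above both others at 91.9% of the 421 genes and at 51.2% of all genes with a region. The same held at 706 of the 841 genes with 8 to 11 regions. The same calls ranked these 20, so nothing is read from this.

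**Figure D2:**
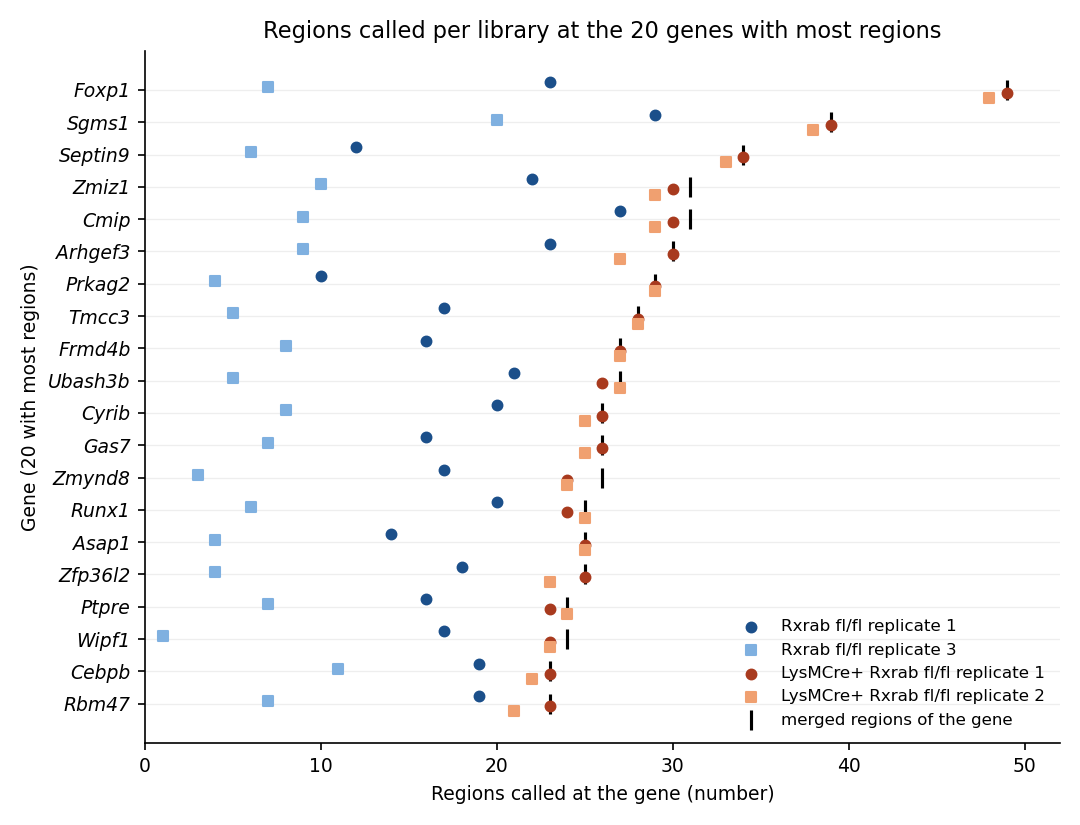
Rows are the 20 genes with most regions; points give the regions called in each library and the black bar the merged regions of the gene. In each row the 2 LysMCre+ Rxrab fl/fl libraries sit to the right of both Rxrab fl/fl libraries, and Rxrab fl/fl replicate 3 sits farthest to the left.

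**Figure D3:**
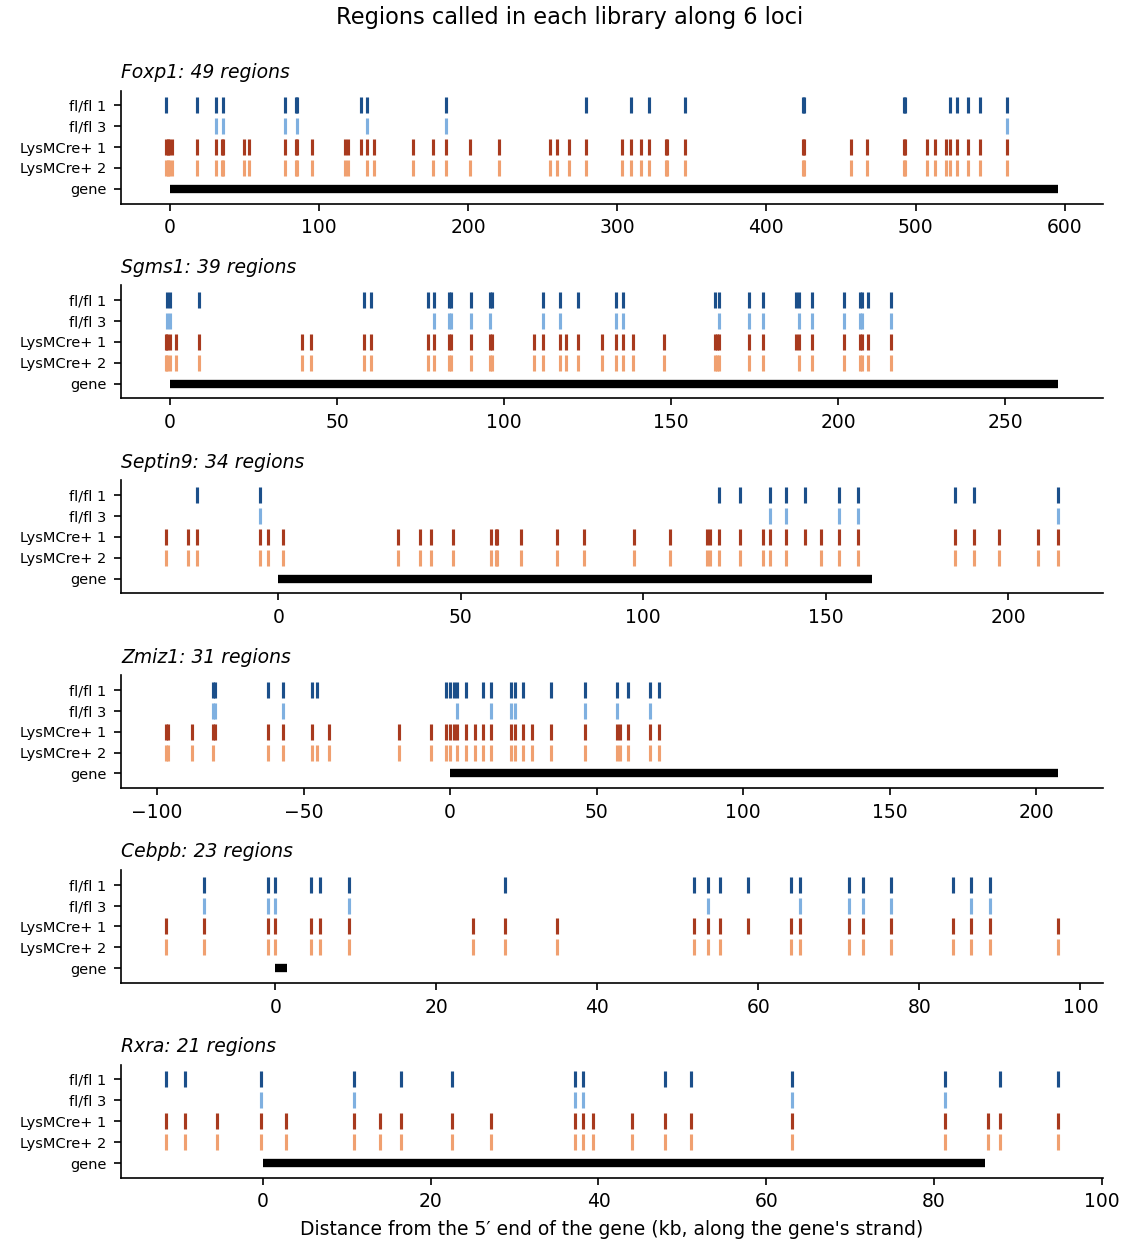
Ticks mark the midpoints of regions called in each library (fl/fl 1 and 3, Rxrab fl/fl; LysMCre+ 1 and 2, LysMCre+ Rxrab fl/fl) along 6 loci, in kb from the 5′ end of the gene, and the black bar is the gene. Foxp1, Sgms1 and Rxra regions lie mostly in the gene body, while those of Cebpb stretch up to 97.3 kb past its 5′ end.

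The 421 genes, of 20021 on the autosomes, were set beside lists of macrophage genes. Of 41 macrophage transcription factors, 17 were members (41.5%): Foxp1, Runx1, Zfp36l2, Cebpb, Irf8, Klf6, Zeb2, Bach1, Fli1, Mitf, Etv6, Fos, Klf2, Bhlhe40, Fosl2, Irf4 and Mef2a. Their 325 regions were called 230 and 86 times in Rxrab fl/fl against 320 and 311 times in LysMCre+ Rxrab fl/fl. Irf8, an interferon regulatory factor of the monocyte lineage, had 21 regions, with 10 and 2 against 20 and 21, and Klf6 had 20, with 18 and 6 against 20 and 19. Of 38 immune receptor signalling enzymes and adaptors, 14 were members, led by the phosphatases Ptpre and Ptprj (17 and 6 against 23 and 23) and by Plcg2, a phospholipase C (10 and 3 against 20 and 20). Of 22 receptors for growth and identity signals, Tgfbr2 and Tlr2 were members. These lists were set with earlier results of these data known and were not tested for enrichment.

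RXRs and their partners were read next. Of 19 genes for RXRs and their receptor partners, 18 had a region and 2 were members, Rxra and Pparg (10.5%, where 2.1% of all autosomal genes were members). Pparg, which encodes a lipid-sensing receptor, had 13 regions, with 9 and 2 called in Rxrab fl/fl against 13 in each LysMCre+ Rxrab fl/fl library. Rxrb had 2 regions, both at promoter-TSS, with 2 and 1 against 2 and 1.

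LPM genes, and genes of small peritoneal and monocyte-derived macrophages, were read separately. Of 32 LPM genes, 7 were members (Cebpb, Ltbp1, Itga6, Cd93, Laptm5, Ccnd1 and Thbs1). Over the whole list of 238 regions, 11.3% had a peak in each LysMCre+ Rxrab fl/fl library but in no other, where the share was 30.7% over all placed regions. It was 35.5% of the 121 regions of the small peritoneal and monocyte-derived list, of which Runx3 and Irf4 were members. It was 45.5% of the 33 regions of the markers of other peritoneal cells, which had 18 and 4 called in Rxrab fl/fl against 32 and 33 in LysMCre+ Rxrab fl/fl. The differences between lists, and the part of other cells in them, were not tested. Some genes of the LPM list and of the small peritoneal list were named in the study for a change in LPMs without RXR. The shares of these lists are therefore not independent evidence. Thbs1, which encodes thrombospondin, had 12 regions, with 12 and 1 called in Rxrab fl/fl against 11 and 10 in LysMCre+ Rxrab fl/fl. Its groups overlapped. Ltbp1, a binding protein of latent TGF-β, had 17, with 16 and 6 against 15 and 17, and the groups overlapped too. Runx3 had 20, with 13 and 7 against 20 in each LysMCre+ Rxrab fl/fl library.

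Per library, the shares of member regions called were close to those of all placed regions. Of the 6565 regions, Rxrab fl/fl replicates 1 and 3 called 68.7 and 27.0%, and LysMCre+ Rxrab fl/fl replicates 1 and 2 called 98.6 and 96.5%, against 69.3, 30.8, 99.1 and 96.7% of all 46907. Regions with a peak in each LysMCre+ Rxrab fl/fl library but in no other were 2052 (31.3%, 95% Wilson interval 30.2 to 32.4, which covers counting error only), near the 30.7% of all placed regions. Regions called only in both Rxrab fl/fl libraries were 4 (0.0609%, against 0.0554% of all placed regions). Regions called in all 4 libraries were 1750 (26.7%, against 30.5%), and 415 genes had at least 1. Outside promoter-TSS, Rxrab fl/fl replicates 1 and 3 called 66.9 and 24.3% of member regions, which was above the 62.6 and 20.6% of all placed regions, while the order was the opposite in promoter-TSS (87.7 and 56.2% against 90.1 and 62.5%). The rule used these calls, so nothing is read from the differences.

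**Figure D4:**
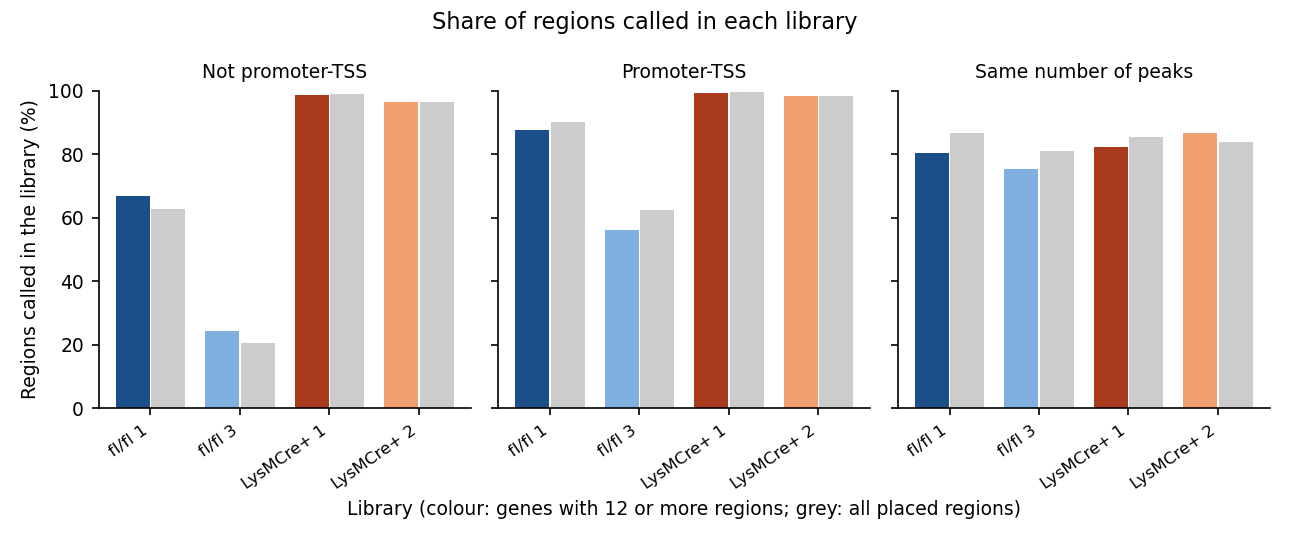
Bars give the percent of regions called in each library, for the regions of the 421 genes (coloured) and for all placed regions (grey), outside promoter-TSS, in promoter-TSS, and with the 16097 strongest peaks of each library only. With whole lists, Rxrab fl/fl replicate 3 is lowest in both classes, and with equal lists the 4 libraries lie between 75.3 and 86.5% at these genes.

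By gene, both LysMCre+ Rxrab fl/fl libraries called more regions than both Rxrab fl/fl libraries at 387 of the 421 genes. This held for 51.2% of all genes with a region, of which 4789 had only 1. It also held at 706 of the 841 genes with 8 to 11 regions. The rule used these numbers too. The reverse held at no member. The ratio of mean regions, LysMCre+ Rxrab fl/fl over Rxrab fl/fl, had a median of 2.00 in members and of 2.00 over all genes and ran from 1.16 to 8. It was highest at Nrp2, a semaphorin and VEGF co-receptor (3 and 0 against 12 and 12). Swap70, a regulator of Rac and of membrane ruffling, had 2 in each Rxrab fl/fl library against 13 in each of the others. Arntl, the clock factor BMAL1, had 5 and 1 against 17 and 17. Tns1, Bid and Ndrg1 followed with ratios of 5.60, 5.20 and 5.20. It was lowest at Emilin2, an extracellular matrix glycoprotein (12 and 7 against 11 and 11), at the glycolytic regulator Pfkfb3 (13 and 7 against 12 and 12) and at Tnfaip3, the NF-κB inhibitor A20 (12 and 6 against 11 and 11). B4galt5, Dusp1 and Jade2 followed, at 1.28, 1.28 and 1.32.

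Much of this order changed when each library was held to the same number of peaks, the 16097 of lowest q value. Rxrab fl/fl replicates 1 and 3 then called 1717 and 1611 regions at the 421 genes and LysMCre+ Rxrab fl/fl replicates 1 and 2 called 1761 and 1851. Both LysMCre+ Rxrab fl/fl libraries were above both Rxrab fl/fl libraries at 111 genes (26.4%, where it was 7.62% of all genes) and below at 68 (16.2%, where it was 7.19%). Over all genes, 4334 had no region left and could not differ, so the shares are not alike in what they rest on. Regions found in the 2 LysMCre+ Rxrab fl/fl libraries alone numbered 301, and those found in the 2 Rxrab fl/fl libraries alone 189, of the 2140 left at these genes (14.1 and 8.83%), against 1587 and 1438 of 16510 over all placed regions (9.61 and 8.71%). Outside the span from 1 kb before to 200 bp after the nearest TSS, the shares were 15.6 and 8.87% at these genes, near the 15 and 9.24% over all genes. The largest gain was at Cmip, with 12 and 9 regions in Rxrab fl/fl against 19 in each LysMCre+ Rxrab fl/fl library. Zmiz1 had 9 in each against 15 in each, Septin9 had 5 and 6 against 11 and 11, and Rxra had 6 in each against 10 in each. Foxp1, first by all regions, had 6 and 7 against 7 and 7. Nrp2 had none in any library. The largest loss was at Tomm20, which encodes a mitochondrial import receptor, with 11 and 10 against 7 and 6. Ptgs1, which encodes cyclooxygenase 1, had 5 in each against 1 and 2, Cd93 had 5 in each against 2 in each, and Sgms1 had 17 and 18 against 14 and 16. By the mean of a genotype, equal lists left more regions with LysMCre+ Rxrab fl/fl at 194 genes (46.1%), the same number at 90 (21.4%) and fewer at 137 (32.5%). This split was not counted over all genes. The genes were chosen from whole lists, in which the LysMCre+ Rxrab fl/fl libraries held more peaks, so nothing is read from it.

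The strength of regions called in all 4 libraries was compared next, since the number of regions does not use it directly. It comes from the same peaks, however, and the LysMCre+ Rxrab fl/fl libraries called most of the regions that chose the genes. Without replicate 1 or 2 of that genotype, 129 or 148 genes remained. The strength at these genes is therefore not independent of their choice. Fold enrichment, the summit over the local background, was set relative to its library median and compared by limma over all 15199 such regions, 1750 of them at these genes. Calls needed an adjusted p under 0.05 together with a change past 1 in log2. At these genes, 1 region was called higher in LysMCre+ Rxrab fl/fl (0.0571%, against 0.0395% of all) and 1 lower (0.0571%, against 0.0461%). The higher one lay 79.2 kb upstream of Ndrg1, a gene induced by stress and hypoxia (chr15:67048452-67049159, intergenic), the window printed above. Its fold enrichment was 8.42 and 4.37 in Rxrab fl/fl against 22.6 and 18.5 in LysMCre+ Rxrab fl/fl, and the genotypes did not overlap. Its summit pileup was 24 and 8 tags in Rxrab fl/fl against 96 and 64 in LysMCre+ Rxrab fl/fl. The Rxrab fl/fl background there was 1.97 and 1.06 tags, the lowest of each library. The fold enrichment of that genotype thus rested on few tags over the lowest background. Both LysMCre+ Rxrab fl/fl libraries had a background above their lowest. The log2 fold change in fold enrichment was 1.38 (standard error 0.20, adjusted p = 0.039 from limma). Without LysMCre+ Rxrab fl/fl replicate 1 or 2 it was 1.41 and 1.36. Without Rxrab fl/fl replicate 1 or 3 it was 1.38 and 1.38.

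Most regions of these genes moved little in fold enrichment. The median log2 fold change was −0.09 at these genes and −0.09 over all 15199 regions, and member values ran from −1.42 to 1.40. After centring, both LysMCre+ Rxrab fl/fl values were above both Rxrab fl/fl values in 363 member regions (20.7%, against 22.3% of all) and below in 531 (30.3%, against 32.9%). For any single region, a two-sided exact permutation test of 2 against 2 cannot go below p = 0.333. Of 238 genes with 4 or more such regions, Septin9 had the highest median log2 fold change, 0.61 over 6 regions. Foxp1 had 0.47 over 7 and Sema4b, a semaphorin, 0.43 over 5. Plekho2 (−0.54 over 6), Cyth1, an exchange factor for ARF GTPases (−0.53 over 5), and Ier2 (−0.52 over 6) had the lowest. The sign was not shared by all regions of a gene: at Foxp1 the log2 fold change ran from −0.67 to 0.80 and at Septin9 from −0.53 to 0.94.

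The summit pileup is the number of tags at the summit, solved from the fold enrichment and p value. Calls on it were more frequent than in fold enrichment. Higher calls outnumbered lower ones at these genes, while over all regions lower calls outnumbered higher ones. At these genes, 84 of 1750 regions were called higher in LysMCre+ Rxrab fl/fl (4.80%, against 2.49% of all) and 45 lower (2.57%, against 4.99%). Outside promoter-TSS the shares were 5.64 and 2.51%, against 3.83 and 4.87% of all such regions. The median log2 fold change was 0.06 at these genes and −0.10 over all regions. The genes were chosen through calls of the same peaks, so these differences from all regions are not independent of the rule. The local background, which divides the pileup in the fold enrichment, differed alongside: its median over regions called in all 4 libraries was 6.20 and 1.92 tags at these genes in Rxrab fl/fl against 6.57 and 5.92 in LysMCre+ Rxrab fl/fl, against 5.92, 1.82, 5.84 and 4.54 over all such regions. Its part in the difference between the measures was not tested. The counts rested on single libraries. Without Rxrab fl/fl replicate 1 or 3, and without LysMCre+ Rxrab fl/fl replicate 1 or 2, between 11 and 136 regions were called higher and between 14 and 83 lower at these genes. Leaving out Rxrab fl/fl replicate 3 gave 136 higher, leaving out LysMCre+ Rxrab fl/fl replicate 2 gave 11 higher and 14 lower, leaving out Rxrab fl/fl replicate 1 gave 83 lower, and leaving out LysMCre+ Rxrab fl/fl replicate 1 gave 22 lower.

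The 84 regions called higher on the pileup belonged to 63 genes and the 45 called lower to 38, with no gene in both. Zmiz1 led with 6 of its 9 regions called higher and a pileup log2 fold change of 0.52 to 1.62 over the 9, whereas in fold enrichment the same regions ran from −0.70 to 0.20. At the Zmiz1 window printed above, the pileup was 157 and 24 tags in Rxrab fl/fl against 373 and 293 in LysMCre+ Rxrab fl/fl, while the fold enrichment was 16.0 and 7.81 against 13.7 and 12.8. Cmip, Mtss1, Septin9 and Ski each had 3 regions called higher. Ski encodes a corepressor of SMAD factors. Tomm20 had 3 of its 11 regions called lower, and Cd93, Itga9, Mdm1, Tnfaip3 and Trim2 had 2 each. The direction at Tomm20 and Cd93 was thus the same as in their numbers of regions with equal lists, which come from the same peaks and are no separate evidence.

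**Figure D5:**
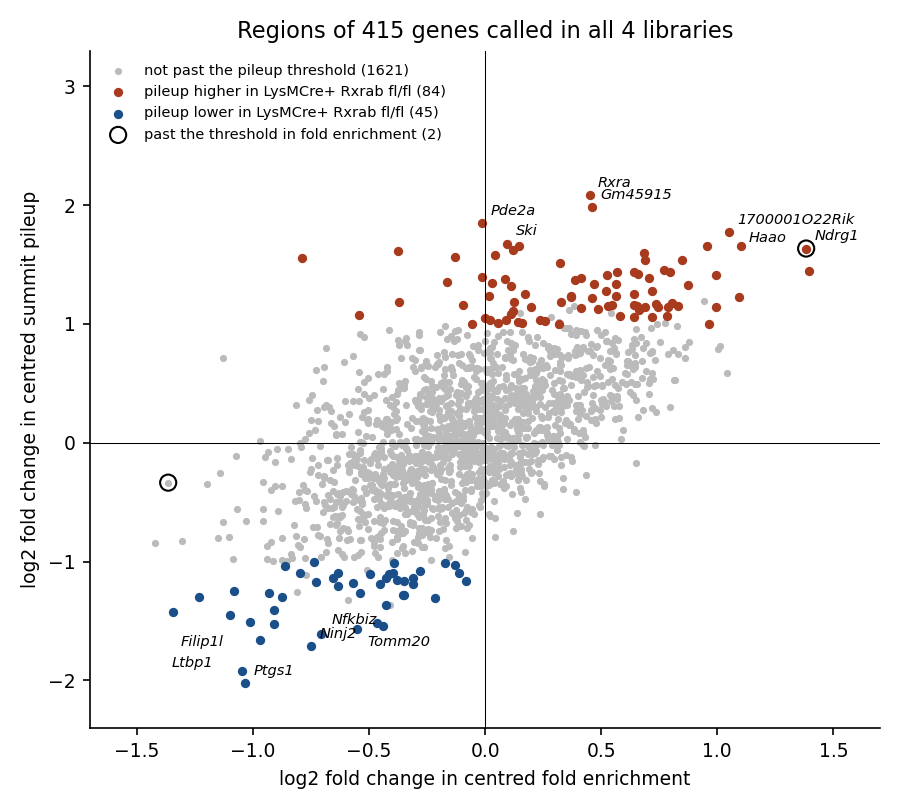
Each point is a region of these genes called in all 4 libraries, with its log2 fold change (LysMCre+ Rxrab fl/fl over Rxrab fl/fl) in centred fold enrichment on the x axis and in centred summit pileup on the y axis; red and blue points pass the threshold on the pileup and circled points in fold enrichment. The red regions of Rxra, Pde2a and Ski lie near 0 to 0.45 in fold enrichment, and the blue region of Ptgs1 lies near −1.03.

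The largest rise on the pileup was in Rxra, 47.9 kb downstream of the nearest TSS and in an intron (chr2:27757954-27759074), the window printed above. Its pileup was 65 and 12 tags in Rxrab fl/fl against 213 and 219 in LysMCre+ Rxrab fl/fl, a log2 fold change of 2.09 after centring (standard error 0.27, adjusted p = 0.0182 from limma). Its fold enrichment was 9.35 and 5.37 against 12.9 and 12.1, with a log2 fold change of 0.45 (adjusted p = 0.234 from limma). The next were regions of Gm45915, inside Zmiz1 (pileup 1.98, fold enrichment 0.46 in log2), of Pde2a, a cyclic nucleotide phosphodiesterase (1.85 and −0.01), of 1700001O22Rik (1.77 and 1.05), of Ski (1.68 and 0.10) and of Haao, an enzyme of kynurenine metabolism (1.66 and 1.10). The 1700001O22Rik region had a fold enrichment of 13.6 and 6.30 against 28.9 and 21.3, and the Haao region of 11.7 and 4.85 against 23.1 and 18.9, so that both measures pointed one way there, with an adjusted p of 0.0562 from limma in fold enrichment for each. At the Haao region, Rxrab fl/fl replicate 3 was at its lowest background, 1.06 tags. At Pde2a the sign differed between the measures.

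The largest fall on the pileup was at an intergenic region 48.6 kb downstream of the TSS of Ptgs1 (chr2:36278808-36279159). Its pileup was 52 and 15 tags in Rxrab fl/fl against 13 and 12 in LysMCre+ Rxrab fl/fl, a log2 fold change of −2.03 after centring (adjusted p = 0.0182 from limma), and in fold enrichment it was 12.9 and 7.34 against 6.02 and 6.25, a log2 fold change of −1.03 (adjusted p = 0.0629 from limma). The genotypes did not overlap in centred fold enrichment. The LysMCre+ Rxrab fl/fl background there was 1.326 and 1.079 tags, the lowest of each library. The values of that genotype thus rested on few tags over the lowest background. Regions of Ltbp1 (−1.92 on the pileup and −1.05 in fold enrichment), Ninj2 (−1.72 and −0.75), Filip1l (−1.66 and −0.97), Nfkbiz, which encodes an atypical IκB protein (−1.61 and −0.71), and Tomm20 (−1.57 and −0.55) followed. All 6 had a negative log2 fold change on both measures, but none passed the threshold in fold enrichment. At Nfkbiz, both LysMCre+ Rxrab fl/fl libraries and Rxrab fl/fl replicate 3 were also at their lowest background. At Ninj2, LysMCre+ Rxrab fl/fl replicate 1 was.

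The pileup calls were also counted by gene list, with no test between lists. Over all placed regions called in all 4 libraries, 2.52% were called higher and 4.68% lower. Of the 92 regions of LPM genes called in all 4 libraries, 13 were called lower (14.1%) and 2 higher (2.17%) on the pileup, with a median log2 fold change of −0.56, against −0.10 over all regions. The 13 were at Cd93, Cyp26a1, F10, F5, Fn1, Garnl3, Ltbp1, Naip1, Serpinb2 and Thbs1, and the 2 at Ccnd1 and Laptm5. In fold enrichment the median was −0.21. Some of these genes were chosen in the study for a change in these mice, so their direction is not independent evidence. Of the 142 regions of the transcription factors, 5 were called higher (3.52%, at Cebpa, Fli1 and Foxp1) and 1 lower (0.704%, at Bach2), with a median of −0.04. Of 128 regions of immune receptor signalling genes, 3 were called higher and 3 lower (2.34% each). Of 28 regions of small peritoneal and monocyte-derived genes, 2 were called higher (7.14%, at Csf2ra and Runx3), none was called lower and the median was 0.10. Some genes of this list, too, were named in the study for a change, so the same limit holds. Of 39 regions of RXRs and partners, 2 were called higher, both at Rxra, and 2 lower, at Nr1h2 and at the Pparg promoter-TSS (5.13% each). Over the 57 regions of growth and identity receptors, 3 were called higher (5.26%) and 2 lower (3.51%). Lists of this size move by several percent with 1 or 2 regions, and how the list counts change when a library is left out was not tested.

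At the targeted gene Rxra, the 21 regions were called 14 and 6 times in Rxrab fl/fl against 21 times in each LysMCre+ Rxrab fl/fl library. Of these, 7 had no peak in Rxrab fl/fl. A run of 16 of them spanned 63.0 kb, from upstream of the gene into its introns. Its 6 regions called in all 4 libraries had a pileup log2 fold change of 0.64 to 2.09, of which 2 were called, and of −0.69 to 0.45 in fold enrichment, none called. The second called region, in an intron 29.7 kb from the nearest TSS, had a pileup of 185 and 30 against 430 and 276 tags and a background of 8.94 and 2.34 against 20.4 and 17.6. Whether the floxed exons were lost cannot be read from peaks.

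Motifs were counted in 201 bp around the strongest summit of each region. AP-1 matches were in 16.1% of member regions and 12.4% of all placed regions, and outside promoter-TSS in 17.1 and 15.1%. PU.1 (GAGGAAGT) was in 10.5 and 9.18%, and outside promoter-TSS in 11.0 and 11.0%. C/EBP was in 12.6 and 10.8% (13.2 and 12.6% outside promoter-TSS), and RUNX (TGTGGTT) in 6.31 and 5.60% (6.68 and 6.67%). GATA, spelled with A or T in its first place and then GATAA, was in 10.9 and 9.53% (11.5 and 11.4%). CTCF matches, by contrast, were less frequent, in 3.82 and 6.50% and outside promoter-TSS in 3.95 and 7.78%. MEF2 was in 0.655 and 0.484%. A pair of AGGTCA half-sites spaced by 1 base (DR1) was in 1 member region and 14 of all placed regions, and spaced by 5 bases (DR5) in none of the 6565. Both strands were searched, no motif holds another, and no test was made.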

How the data were processed

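ATAC-seq was analysed in 4 libraries of sorted LPMs, 2 per genotype, with groups from the labels. The authors trimmed adaptors with cutadapt, aligned to mm10 with Bowtie2, and kept unique reads of mapping quality above 30 outside mitochondrial and sex chromosomes. They ran MACS2 2.1.1 per library, extending reads to 200 bp at a q value of 0.05, and dropped blacklisted regions. ATAC-seq samples that did not cluster with their group were left out by the study, so the spread may be understated. The deposited fold enrichment is the ratio of summit to local background, beside which the deposited lists hold −log10 of p and q values, and an integer score, which was not used. Read counts are not analysed here, and some genes and 1 gene list are not reported here.

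Peaks sharing 1 bp were merged and placed by midpoint on RefSeq NM transcripts of GRCm38. The members and the gene lists were chosen with earlier results of these data known. The pileup at each summit was solved from fold enrichment and p with a pseudocount of 1, for all but 4 peaks within 0.001 of −log10 p, and the pileup fit of those regions used the other libraries. In a test on simulated data, 19332 of 19332 were recovered. Log2 fold enrichment, centred on library medians, was tested with limma 3.58.1 in R 4.3.3 with Benjamini-Hochberg adjustment. On simulated data limma called 99 of 100 regions changed by 1.5 and 100 of 100 by 2.5 (log2), and 0 of 14999 unchanged. The simulation drew normal noise at the fitted spread of each region, alike in all 4 libraries. It held no weak library or difference in background, so it does not give the error rates in these data. Python 3.11.15 with pandas 2.3.3, scipy 1.17.1 and pysam 0.24.0 was used. Depth is known only through the background.

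Genes were named by rule: the 20 with most regions, 2 to 6 per gene list, the 6 highest and lowest per gene length and by ratio between genotypes, regions past limma, up to 6 in each direction on the pileup, 3 by median change in each direction, Rxra and Rxrb, genes at the threshold, and the longest runs. Genes leading with equal lists, with most regions in another gene, or with several pileup calls were chosen after their values were seen. Alternatives were a q value of 0.01, equal lists, summits, each library left out, other TSS sets, distances and library minimums, gene bodies, and, for limma, the pileup, quantile normalization, no centring and a mean-variance trend. Leaving libraries out of the pileup fit was chosen after seeing the data.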

Additional observations from a re-analysis of the deposited data

How the results depend on the processing

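The members depended on which libraries and regions counted. The numbers of genes and regions were 421 and 6565. They were 5 and 81 with the same number of peaks per library, 2 and 32 with regions in all 4 libraries, 181 and 2715 within 50 kb, and 903 and 14868 with regions in 1 or more libraries. All 421 genes were among the 903. Leaving out each library gave 129 to 421 genes and 1826 to 6560 regions, lowest without LysMCre+ Rxrab fl/fl replicate 1 (129) or replicate 2 (148). A q value of 0.01, summits, NR transcripts and gene bodies gave 334 to 545 genes. The mean share called per LysMCre+ Rxrab fl/fl library was 97.5%, 87.0% with equal lists and 95.7% with summits, and 97.6 to 99.9% when a library was left out. The share with a peak in each LysMCre+ Rxrab fl/fl library but in no other was 31.3%, 19.8% with equal lists, and 31.3 to 72.1% when an Rxrab fl/fl library was left out, the highest without replicate 1.

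In limma on fold enrichment, 6 regions were called higher and 7 lower over all regions, and 1 and 1 at these genes. On the pileup these were 379 and 758, and 84 and 45. With quantile normalization they were 9 and 2, and 2 and 0. Without centring, 0 were called by limma in either set, with 93 member regions at an unadjusted p under 0.05, and the median over all regions moved from −0.09 to 0.28. With a mean-variance trend they were 61 and 76, and 8 and 14. When a library was left out, 3 to 244 were called higher and 10 to 540 lower over all regions, and 0 to 21 and 0 to 85 at these genes, the most without Rxrab fl/fl replicate 1; a genotype left with 1 library was assumed to vary like the other. Without LysMCre+ Rxrab fl/fl replicate 2, 0 were called at these genes, with 178 at an unadjusted p under 0.05. Pileup calls at these genes were 11 to 136 higher and 14 to 83 lower when a library was left out. The Pde2a region went from −0.01 to 1.85 on the pileup. The cause of these differences was not tested. No paired analysis was possible because the genotypes share only replicate number 1.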
